A study of Mus musculus with 6 samples.

Results

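Collagen chains that build or decorate collagen fibrils were examined in 6 mouse tibialis anterior (TA) muscles. The 10 genes were taken by symbol from the 41709 genes of the deposited table, and all 10 had a row. They are *Col1a1*, *Col1a2*, *Col3a1*, *Col5a1*, *Col5a2*, *Col5a3* and *Col11a1*, which encode fibril-forming chains, and *Col12a1*, *Col14a1* and *Col16a1*, which encode fibril-associated chains. The libraries come from 3 muscles given a plasmid for wild-type Lrpprc (LrpprcWT) and from 3 contralateral muscles given the LrpprcP27A plasmid, in which proline 27 is replaced by alanine and cannot be hydroxylated. Both plasmids are pCMV6 vectors for Flag-tagged mouse Lrpprc, an RNA-binding protein that acts mainly in mitochondria. All muscles came from male C57BL/6J mice and were injected with hyaluronidase, electroporated and collected 14 days later. The study used mice of 4 and 27 months, and the age of the sequenced animals is not stated outright in the sources used here. No muscle without electroporation was analysed here, so both groups carry the response to the injection and the pulses.

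Fibril-forming collagens assemble from 3 chains, wound into a long helix in which glycine recurs at a fixed spacing. Type I and type III fibrils give the connective tissue around muscle fibres its tensile strength, and type V collagen sits within them and limits their diameter. Fibril-associated collagens have short interrupted helices, lie on the fibril surface and link fibrils to other matrix proteins. In skeletal muscle these chains are made mainly by fibroblasts of the interstitium and by tendon cells, and much less by the muscle fibres.

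The helix can be read in the genes. In GENCODE gene models of GRCm39, 21 of the 51 coding exons of *Col1a1* are exactly 54 bases long (41.2%), against 0.668% of all 197910 coding exons of the 21770 canonical coding transcripts. The share was 41.2% to 47.1% in the 7 fibril-forming chains, 17.4% in *Col16a1*, 8.51% in *Col14a1* and 6.15% in *Col12a1*. One such exon from each of 6 chains is shown because it holds the repeat that unites the family: each is the first coding exon of 54 bases that opens with a glycine codon and has one every 9 bases, 5′ to 3′ on the coding strand (GRCm39), with glycine codons in capitals.

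Col1a1 (chr11:94830730-94830783, plus strand, coding exon 8 of 51): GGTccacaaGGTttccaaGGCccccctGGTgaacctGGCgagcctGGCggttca
Col1a2 (chr6:4515481-4515534, plus strand, coding exon 8 of 52): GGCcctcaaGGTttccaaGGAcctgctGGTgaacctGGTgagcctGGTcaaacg
Col3a1 (chr1:45364520-45364573, plus strand, coding exon 6 of 51): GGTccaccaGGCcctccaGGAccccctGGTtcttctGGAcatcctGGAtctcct
Col5a1 (chr2:27855263-27855316, plus strand, coding exon 15 of 66): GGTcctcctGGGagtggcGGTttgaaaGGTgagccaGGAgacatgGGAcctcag
Col5a3 (chr9:20712364-20712417, minus strand, coding exon 15 of 67): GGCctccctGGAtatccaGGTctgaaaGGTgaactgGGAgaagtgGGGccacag
Col14a1 (chr15:55331356-55331409, plus strand, coding exon 36 of 47): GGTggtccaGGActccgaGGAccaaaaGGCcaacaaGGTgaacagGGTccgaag

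Each exon holds 6 glycine codons, as the rule for choosing it asks, and the bases between them differ from chain to chain. Over the whole coding sequence, the longest unbroken run of such triplets was 337 to 344 triplets in the fibril-forming chains. It was 32 triplets in *Col12a1* and *Col14a1* and 52 in *Col16a1*, whose repeats are broken into 21 runs of 5 or more triplets. The members thus fall into chains with 1 long helix and chains with several short ones.

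**Figure D1:**
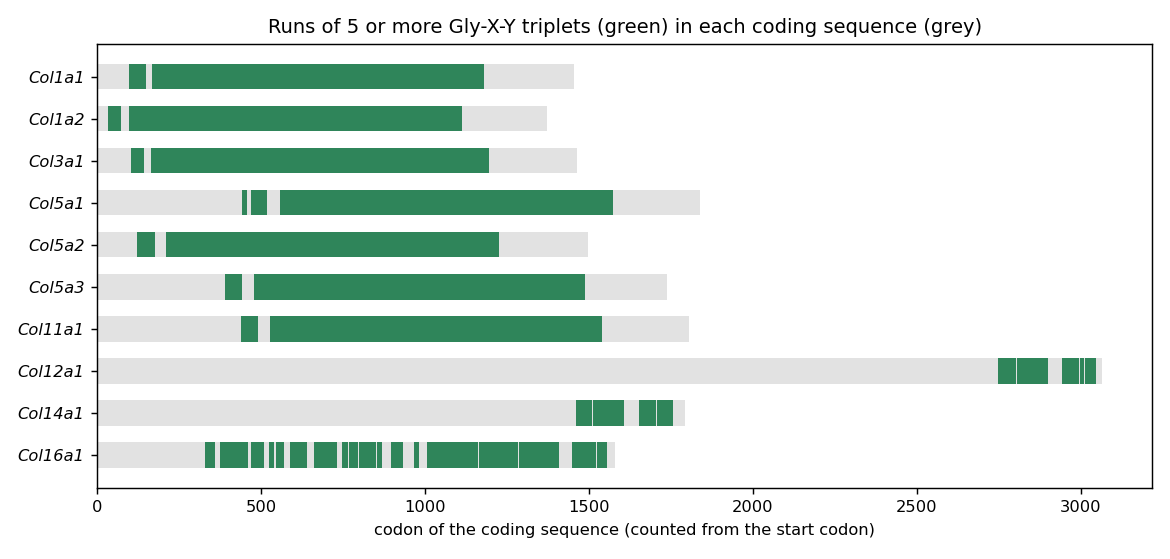
Coding sequence of each chain in codons from the start codon (grey) with runs of 5 or more glycine-X-Y triplets (green). The 7 fibril-forming chains hold 1 long run of 337 to 344 triplets, and the repeats of *Col12a1* and *Col14a1* lie near the end of the coding sequence in runs of at most 32.

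The values are TPM, a gene's share of the transcripts of a library after correction for transcript length, scaled so that each library sums to 1000000, so levels of different genes can be compared within a library. TPM keeps no read depth, and no counting error can be given. Acta1 and Ckm, which encode skeletal actin and muscle creatine kinase, had means of 41312 and 11786 TPM in the LrpprcWT muscles. *Lrpprc* had 35.1, 37.0 and 75.2 TPM in the LrpprcWT libraries and 26.9, 29.7 and 26.0 TPM in the LrpprcP27A libraries, and plasmid and mouse transcripts are not told apart (log2 fold change -0.72, adjusted p = 0.0652 by limma, 0.00243 when paired). The gap was widest in replicate 3 (75.2 against 26.0 TPM), and the paired p-value does not measure the spread of these pairs. By qRT-PCR the paper reports similar *Lrpprc* mRNA with both plasmids in young mice, and no significant difference in old mice. Mitochondrially encoded RNA took 36.0% to 45.2% of TPM with LrpprcWT and 44.2% to 46.1% with LrpprcP27A. Most genes were lower with LrpprcP27A on the deposited scale, with a median log2 fold change of -0.32 over the 11611 genes tested. The counts of calls for the chains and the lists are therefore also given after median-of-ratios scaling, which sets the typical gene to no change (median -0.0047). The LrpprcWT library of replicate 2 was the lowest of its group for 8 of the 9 chains tested. The LrpprcP27A library of replicate 1 was the highest of its group for all 9.

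All 9 chains with a mean of at least 1 TPM fell in the LrpprcP27A muscles, at an adjusted p under 0.05 from limma. Their log2 fold changes ran from -2.22 for *Col1a1* to -1.03 for *Col5a3*, with a median of -1.77, against -0.32 for all genes. Of all genes tested, 23.3% were called lower and 1.34% higher, so a lower call by itself is common in this comparison. With the replicate number as a block, all 9 were called lower too, where 48.4% of all genes were. After median-of-ratios scaling 8 of the 9 were called lower, where 6.03% of all genes were, and with this scaling and the block all 9, where 15.8% were. Every LrpprcP27A value lay below every LrpprcWT value in 9 of the 9 chains, and in 47.6% of all genes tested. Between 0.284% of the tested genes (for *Col1a1*) and 4.86% (for *Col5a3*) had a lower log2 fold change than the chain itself. After median-of-ratios scaling these shares were 0.336% and 5.86%. None of the 9 calls held without the LrpprcWT library of replicate 3: the 9 log2 fold changes were then -2.16 to -0.94 but the adjusted p from limma was 0.0890 to 0.106. The unadjusted p was under 0.05 in 9 of 9, where 3205 of the 11611 genes were lower at that threshold. Calls were lost across the whole table without that library, where limma called 15 of the 11611 genes lower, against 2705 with it. *Col5a3* and *Col12a1* also lost their calls without LrpprcWT replicate 1, LrpprcP27A replicate 2 or LrpprcP27A replicate 3, and *Col16a1* without LrpprcWT replicate 1 (adjusted p = 0.0539 from limma). For *Col5a3* these adjusted p-values were 0.0644, 0.0501 and 0.0553, and for *Col12a1* 0.0807, 0.0907 and 0.0830. In a bulk muscle, fewer collagen-producing cells and less collagen mRNA per cell cannot be told apart.

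The chains of type I collagen, the main fibrillar collagen of tendon and fascia, were among the most abundant. *Col1a1* lies on chromosome 11 (94827050 to 94843868, GRCm39, as all positions here) and had 490.7, 324.2 and 452.9 TPM in the LrpprcWT libraries and 163.7, 58.2 and 73.0 TPM in the LrpprcP27A libraries. Its lowest LrpprcWT value was 1.98 times its highest LrpprcP27A value, so the groups stood well apart. The mean fell from 422.6 ± 87.3 to 98.3 ± 57.1 TPM (SD, n = 3 each), a log2 fold change of -2.22 (95% confidence interval -2.99 to -1.45, adjusted p = 0.0124 from limma). *Col1a2* (chromosome 6, 4504814 to 4541555), the partner chain, had 218.5, 138.9 and 189.2 TPM with LrpprcWT and 84.1, 31.7 and 40.8 TPM with LrpprcP27A. The groups did not overlap, and the log2 fold change was -1.88 (95% confidence interval -2.61 to -1.15, adjusted p = 0.0153 from limma). In both genes the LrpprcP27A muscle of replicate 1 kept more mRNA than the other two.

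*Col3a1* (chromosome 1, 45350698 to 45395840) encodes the chain of type III collagen, which forms fine fibrils in compliant tissues and in healing muscle. It was the most abundant member in all 6 libraries, with 615.3, 342.4 and 577.7 TPM with LrpprcWT and 183.9, 79.8 and 95.7 TPM with LrpprcP27A. No value of one group reached the other. The mean was 511.8 ± 147.9 TPM with LrpprcWT and 119.8 ± 56.1 TPM with LrpprcP27A (SD, n = 3 each), and the log2 fold change was -2.14 (95% confidence interval -2.86 to -1.42, adjusted p = 0.0116 from limma).

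The 3 type V chains, which nucleate type I fibrils and set their diameter, split in the size of their fall. *Col5a1* (chromosome 2, 27776397 to 27929526) had 66.7, 35.1 and 59.6 TPM with LrpprcWT and 23.2, 11.2 and 14.1 TPM with LrpprcP27A, and its log2 fold change was -1.68 (95% confidence interval -2.34 to -1.02, adjusted p = 0.0154 from limma). *Col5a2* (chromosome 1, 45412554 to 45542442), which lies next to *Col3a1*, had 49.4, 23.6 and 42.4 TPM with LrpprcWT and 14.4, 6.96 and 10.04 TPM with LrpprcP27A, a log2 fold change of -1.77 (95% confidence interval -2.45 to -1.09, adjusted p = 0.0153 from limma). In both genes the groups were apart, by 1.51 and 1.64 times between the nearest values. *Col5a3* (chromosome 9, 20681337 to 20726418), the least widespread type V chain, had 43.6, 28.2 and 42.3 TPM with LrpprcWT and 23.1, 14.5 and 16.8 TPM with LrpprcP27A. Its nearest values differed by only 1.22 times, and its log2 fold change of -1.03 (95% confidence interval -1.51 to -0.55, adjusted p = 0.0196 from limma) was the smallest of the 9. Without mitochondrially encoded genes and ribosomal RNA rows in the TPM total, 7 of the 9 chains were called lower, where 661 of the 11587 genes tested were. The adjusted p from limma was then 0.0518 for *Col5a3* and 0.0808 for *Col12a1*.

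The fibril-associated chains were scarcer. *Col14a1* (chromosome 15, 55171140 to 55384199), whose product binds decorin on the fibril surface, had 24.7, 9.29 and 20.2 TPM with LrpprcWT and 5.67, 1.95 and 2.93 TPM with LrpprcP27A. It had the largest fold of means among the 10 members (5.14-fold lower) and a log2 fold change of -2.06 (95% confidence interval -2.92 to -1.21, adjusted p = 0.0162 from limma). *Col16a1* (chromosome 4, 129941154 to 129993076) had 11.5, 5.46 and 8.13 TPM with LrpprcWT and 3.55, 1.12 and 1.77 TPM with LrpprcP27A, a log2 fold change of -1.60 (95% confidence interval -2.31 to -0.89, adjusted p = 0.0178 from limma). Neither gene had overlapping groups. *Col12a1* (chromosome 9, 79506268 to 79626135), a chain of dense fascia and the myotendinous junction, had 8.19, 2.80 and 2.61 TPM with LrpprcWT and 1.83, 0.452 and 0.665 TPM with LrpprcP27A. The LrpprcWT library of replicate 1 was about 3 times as high as the other two of its group. The log2 fold change of *Col12a1* was -1.40 (95% confidence interval -2.26 to -0.54, adjusted p = 0.0343 from limma), and it was -0.96 without that library (adjusted p = 0.0807 from limma). Adding 1 to TPM understates changes of so low a gene, and the fold of means of *Col12a1* was 4.62. With 0.1 added instead, the log2 fold change was -2.11 for *Col12a1*, -2.35 for *Col14a1* and -2.23 for *Col1a1*, so the order of the chains depends on this choice. *Col12a1* was the chain that lost its call after median-of-ratios scaling (log2 fold change -1.17, adjusted p = 0.0841 from limma, or 0.00661 when paired), and quantile normalization gave an adjusted p of 0.112.

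*Col11a1* (chromosome 3, 113824134 to 114014367), a fibril-forming chain best known from cartilage, was near the limit of the table. It had 1.39, 0.821 and 0.244 TPM with LrpprcWT and 0.654, 0.148 and 0.219 TPM with LrpprcP27A, so the groups overlapped. Its mean of 0.580 TPM kept it out of the tested genes. With no filter the fitted difference was -0.41 ± 0.26 (SE) on the log2 scale (limma, adjusted p = 0.296), on a scale that understates changes of low genes.

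**Figure D2:**
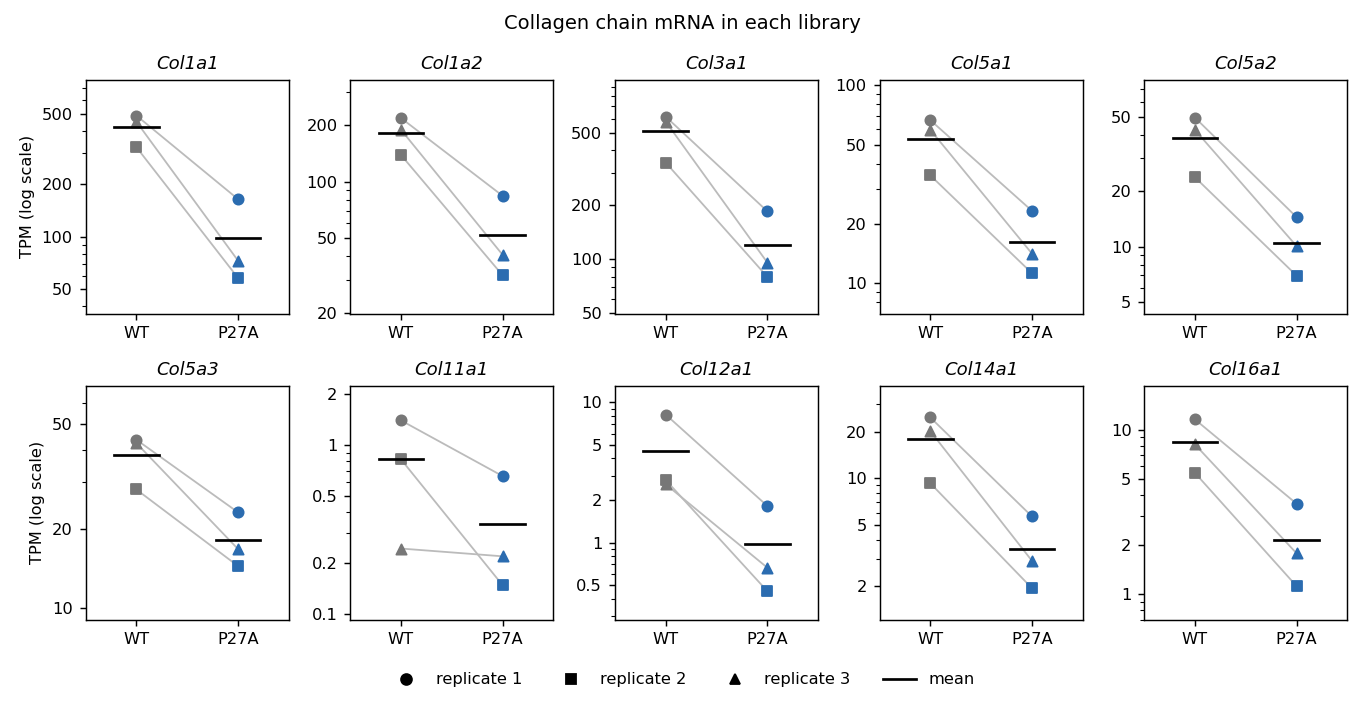
TPM of each chain (log scale, own range per panel) in the 3 LrpprcWT (grey) and 3 LrpprcP27A (blue) muscles; a grey line joins muscles with the same replicate number and the bar is the group mean. Lines fall in all 30 cases, and *Col11a1* is the panel in which the groups overlap.

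The order of the levels was much the same in both groups. With LrpprcWT it ran from *Col3a1* through *Col1a1*, *Col1a2*, *Col5a1*, *Col5a2*, *Col5a3*, *Col14a1*, *Col16a1* and *Col12a1* to *Col11a1*, and each chain was above the next in 3 of 3 libraries, except that *Col5a2* was above *Col5a3* in 2 of 3. With LrpprcP27A, *Col5a3* moved ahead of *Col5a1* (18.1 ± 4.48 against 16.2 ± 6.26 TPM, SD, n = 3 each) and was above it in 2 of 3 libraries. The order of these neighbours was thus not the same in every LrpprcP27A library, while *Col5a1* was above *Col5a3* in each LrpprcWT library. Their difference was not tested. Together the 10 chains made up 0.128% ± 0.0326 of all TPM with LrpprcWT and 0.0322% ± 0.0160 with LrpprcP27A (SD, n = 3 each). Types I and III took 86.6% to 88.4% of the members' TPM with LrpprcWT and 81.8% to 85.6% with LrpprcP27A. The share of the 3 type V chains was 9.54% to 10.4% and 12.0% to 15.99%.

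Pair by pair, TPM of *Col1a1* was 3.00, 5.57 and 6.20 times as high in the LrpprcWT muscle as in the LrpprcP27A muscle of replicates 1, 2 and 3. For *Col5a3* the same ratios were 1.89, 1.95 and 2.52, and for *Col14a1* 4.36, 4.77 and 6.89. Replicate 1 had the smallest fall on the log2 scale in 6 of the 9 chains. The median within-pair change of log2(TPM + 1) over the 9 was -1.58, -1.63 and -2.002.

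**Figure D3:**
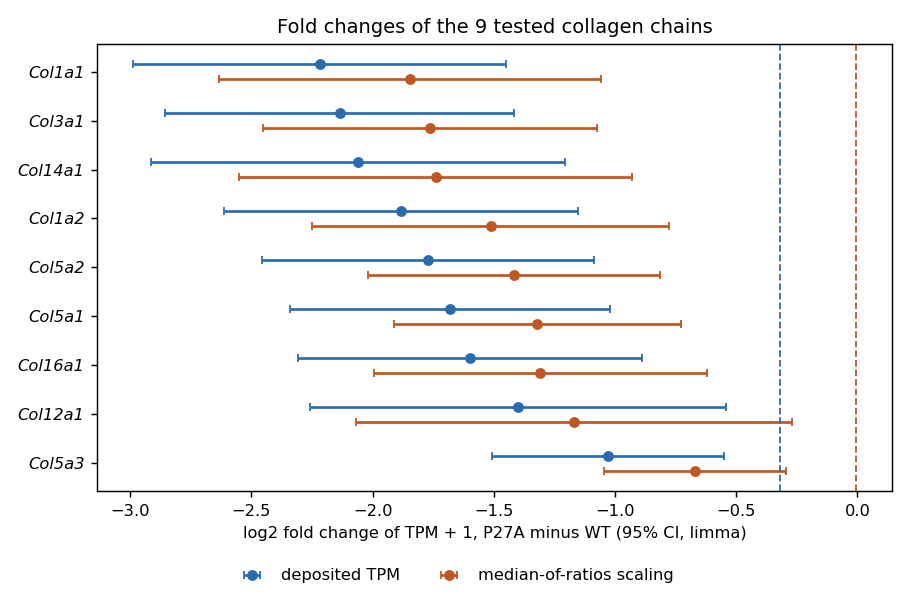
log2 fold change of TPM + 1 (LrpprcP27A minus LrpprcWT) of the 9 tested chains with 95% confidence intervals from limma, as deposited (blue) and after median-of-ratios scaling (orange). Dashed lines are the medians of all tested genes, -0.32 and -0.0047, and the 18 intervals end below 0.

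Ratios of transcripts within a library do not move with the scaling, and 8 were compared between the groups. Type I collagen is built mainly from 2 chains of *Col1a1* and 1 of *Col1a2*. The *Col1a1*/*Col1a2* ratio of TPM was 2.25, 2.33 and 2.39 with LrpprcWT and 1.95, 1.83 and 1.79 with LrpprcP27A. The groups did not overlap, at a mean of 2.32 ± 0.0745 against 1.86 ± 0.0800 (SD, n = 3 each). By a two-sided exact permutation test p was 0.1, the smallest that 3 against 3 allow, and 0.267 after adjustment over the 8 ratios. The ratio was lower in the LrpprcP27A muscle in 3 of 3 pairs, so *Col1a1* was lower relative to its partner chain. The *Col5a1*/*Col1a1* ratio was 0.136, 0.108 and 0.132 with LrpprcWT and 0.142, 0.193 and 0.193 with LrpprcP27A, again without overlap (exact permutation test, two-sided, p = 0.1, adjusted p = 0.267). By contrast, the *Col1a1*/*Col3a1* ratio was 0.784 to 0.947 with LrpprcWT and 0.730 to 0.890 with LrpprcP27A (exact permutation test, two-sided, p = 0.5, adjusted p = 0.667). The ratios *Col5a2*/*Col1a1*, *Col5a1*/*Col5a2*, *Col12a1*/*Col1a1* and *Col14a1*/*Col1a1* overlapped between the groups as well (exact permutation tests, two-sided, p = 0.3, 0.2, 1 and 0.6, adjusted p = 0.48, 0.4, 1 and 0.686). *Col3a1* was also set against *Dcn*, which encodes the fibril-binding proteoglycan decorin of the same fibroblasts. That ratio was 4.80, 3.73 and 5.73 with LrpprcWT and 2.35, 1.63 and 1.33 with LrpprcP27A (exact permutation test, two-sided, p = 0.1, adjusted p = 0.267), so type III collagen mRNA was lower relative to decorin mRNA in each LrpprcP27A library. *Col5a3*/*Col1a1*, a ratio looked at after its values were seen and not tested, was 0.0888, 0.0870 and 0.0934 with LrpprcWT and 0.141, 0.248 and 0.230 with LrpprcP27A.

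**Figure D4:**
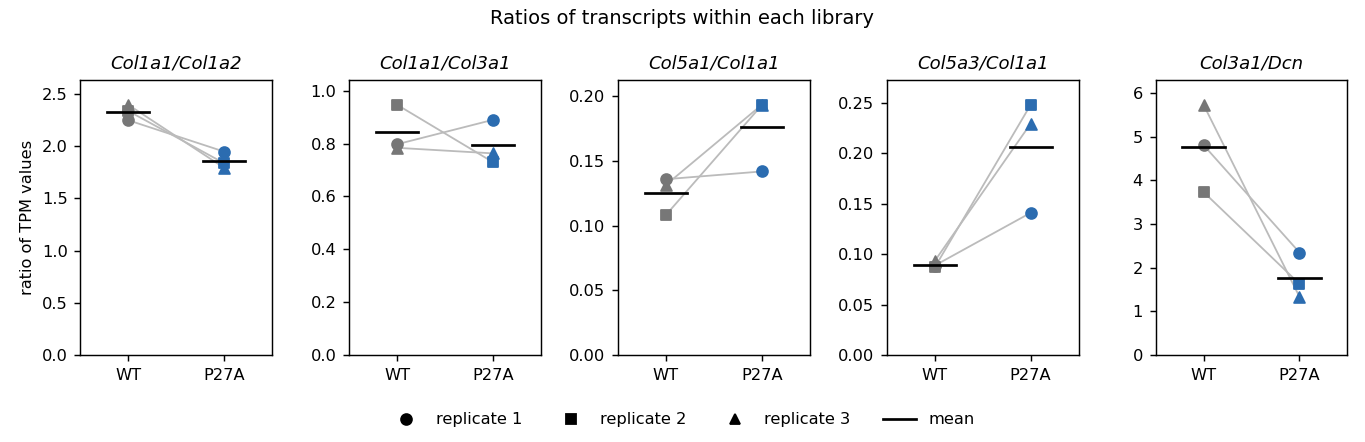
Ratios of 2 TPM values within each library (axes start at 0; grey LrpprcWT, blue LrpprcP27A; lines join equal replicate numbers; bars are means). *Col1a1*/*Col1a2* and *Col3a1*/*Dcn* are lower and *Col5a1*/*Col1a1* and *Col5a3*/*Col1a1* higher in all 3 LrpprcP27A libraries, while *Col1a1*/*Col3a1* overlaps.

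Genes that act on these chains were examined in 7 lists, and each count as deposited is read against the 23.3% of all genes called lower by limma. After median-of-ratios scaling limma called 700 of the 11611 genes lower (6.03%) and 609 higher, and counts after that scaling are read against these. Without LrpprcWT replicate 3 no gene of any list was called by limma, as none of the chains was. Among genes that modify and fold procollagen in the endoplasmic reticulum, 12 of the 19 tested fell and none rose (median log2 fold change -0.67, and 6 fell and 1 rose after median-of-ratios scaling). The largest falls were those of *Crtap* (-1.43), a subunit of the prolyl 3-hydroxylase complex, *Fkbp10* (-1.38), a prolyl isomerase, and *Serpinh1* (-1.25), the collagen chaperone HSP47. *Serpinh1* had 161.7 ± 57.5 TPM with LrpprcWT and 66.8 ± 20.9 TPM with LrpprcP27A (SD, n = 3 each, adjusted p = 0.0262 from limma). At the other end *Mia3*, which helps load procollagen into transport carriers, had a log2 fold change of 0.35 (limma, adjusted p = 0.0525, or 0.0265 when paired). The catalytic subunits of prolyl 4-hydroxylase *P4ha1* and *P4ha2*, named here after their values were seen, had log2 fold changes of -0.02 and 0.0048. Not all of this enzyme stayed level. The catalytic subunit *P4ha3*, too low to test, had 1.77, 0.664 and 1.20 TPM with LrpprcWT and 0.384, 0.0325 and 0.0649 TPM with LrpprcP27A. The partner subunit *P4hb* fell (-0.65, adjusted p = 0.0256 from limma, and 0.0805 after median-of-ratios scaling).

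Of the genes for propeptide processing and cross-linking, 8 of the 9 tested fell (median -1.13, and 5 after median-of-ratios scaling). *Lox* (-1.80), *Loxl1* (-1.40) and *Loxl2* (-1.28), the lysyl oxidases that cross-link fibrils, led them. *Lox* had 10.9 ± 4.20 TPM with LrpprcWT and 2.31 ± 0.662 TPM with LrpprcP27A (SD, n = 3 each, adjusted p = 0.0126 from limma). *Pcolce2*, a procollagen proteinase enhancer, had a log2 fold change of 0.29 (adjusted p = 0.237 from limma). Among fibril-binding proteins 10 of 14 fell (median -1.29, and 7 after median-of-ratios scaling). *Postn*, which encodes the matricellular protein periostin, fell by 3.00 on the log2 scale, from 56.0 ± 28.9 to 6.11 ± 4.02 TPM (SD, n = 3 each, adjusted p = 0.0126 from limma). Fibronectin (*Fn1*, -1.77) and biglycan (*Bgn*, -1.53) followed, and keratocan (*Kera*) had a log2 fold change of 0.175 that did not pass (adjusted p = 0.793 from limma). Of these 14 genes, 7 also stand in the marker lists given below.

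Collagen receptors fell in 4 of 6 tested genes (median -0.75, and 1 after median-of-ratios scaling), with the largest falls in the uptake receptor *Mrc2* (-1.32) and the discoidin domain receptors *Ddr1* (-0.84) and *Ddr2* (-0.79). *Itga1*, an integrin subunit that binds collagen, had -0.48 (limma, adjusted p = 0.0985, or 0.0131 when paired). Genes for collagen breakdown and its inhibitors fell in 6 of 9 (median -1.48, and 5 after median-of-ratios scaling). They included the inhibitor *Timp1* (-2.01), the membrane metalloproteinase *Mmp14* (-1.615) and cathepsin K (*Ctsk*, -1.56), while *Timp3* had -0.08 (adjusted p = 0.799 from limma). In the TGF-beta pathway, a well-known inducer of fibrillar collagen genes, 4 of 10 fell (median -0.42). After median-of-ratios scaling 1 fell and 1 rose, near the shares of all genes. The ligand *Tgfb1* fell (-1.11), and *Ccn2*, which encodes connective tissue growth factor, had -1.58 (limma, adjusted p = 0.0678, or 3.8e-06 when paired). *Smad4*, the shared transducer, had 0.03 on the deposited scale (adjusted p = 0.837 from limma) and rose by 0.39 after median-of-ratios scaling (adjusted p = 0.0463 from limma).

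Fibrillar and fibril-associated chains outside the 10 were mostly too low to test. Of the 11 listed, 10 had a row and 4 passed the filter. *Col24a1*, a fibrillar chain, fell (log2 fold change -1.20, adjusted p = 0.0226 from limma, and 0.0536 after median-of-ratios scaling). *Col22a1*, a chain of the myotendinous junction, had -0.52, *Col20a1* -0.29 and *Col11a2* -0.10, and none of these 3 passed without the block. With the block 2 of the 4 were called lower, near the 48.4% of all genes called with it.

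The genes whose profile over the 6 libraries was closest to the mean profile of the 9 chains were *Thbs3*, *Tnc*, *Ctsk*, *Marcksl1* and *Il1b*. Likeness was measured as the root mean square difference of centred log2(TPM + 1), which was 0.0939, 0.111, 0.125, 0.127 and 0.130 for these 5 and had a median of 0.815 over the 11584 genes compared. The members themselves lay at 0.0735 (*Col5a1*) to 0.398 (*Col5a3*) from that mean. The 5 genes encode thrombospondin 3 and tenascin C, both matrix proteins, the collagen-degrading protease cathepsin K, a MARCKS-like actin regulator and the cytokine interleukin 1 beta. *Tnc* had 10.7, 3.92 and 7.71 TPM with LrpprcWT and 2.85, 0.741 and 1.31 TPM with LrpprcP27A, which ranks the 6 libraries in the same order as *Col1a1*.

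Markers of the cells a TA muscle can hold were read against the same shares of all genes called lower, 23.3% as deposited, 48.4% with the block and 6.03% after median-of-ratios scaling. Of the 10 fibroblast markers other than collagens 8 fell (median log2 fold change -1.08, and 5 after median-of-ratios scaling), with *Mfap5* at -1.71, *Dpt* and *Lum* at -1.39 and *Smoc2* at -0.18. Their summed level was 338 to 551 TPM with LrpprcWT and 173 to 273 TPM with LrpprcP27A, a 2.07-fold difference of means. The summed level of the 10 chains had means of 1279 and 322 TPM. Gene by gene, the 9 chains differed 2.10-fold (*Col5a3*) to 5.14-fold (*Col14a1*). Single markers varied as well, with means from 22.8 to 6.10 TPM for *Mfap5* and from 29.6 to 26.2 TPM for *Smoc2*. Of the myofibroblast markers 4 of the 6 tested fell, before and after median-of-ratios scaling (summed level 147 to 262 and 77.2 to 136 TPM), with *Postn* at -3.00, *Cthrc1* at -2.26 and *Tnc* at -1.67, while *Tagln* had -0.12. Of the tendon cell markers 2 of 7 fell, near the share of all genes, and none after median-of-ratios scaling (summed level 98.2 to 179 and 44.7 to 131 TPM, which overlap). They were *Comp* (-1.22) and *Thbs4* (-1.05), with *Tnmd* at -1.05 (adjusted p = 0.147 from limma). All 8 macrophage markers fell (median -1.37, and 3 after median-of-ratios scaling), with summed levels of 328 to 661 and 110 to 225 TPM. *Cd68*, *Lyz2* and *C1qb* had -1.69, -1.54 and -1.39 and *Csf1r* -0.86.

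Endothelial and mural markers fell in 2 of 6 each, not far above the share of all genes (5 and 4 with the block, none after median-of-ratios scaling without it), with summed levels of 148 to 266 against 109 to 150 TPM and 221 to 340 against 183 to 236 TPM, and both pairs of ranges overlap. Both tested satellite cell markers fell, and 1 of them after median-of-ratios scaling (summed level 4.46 to 5.86 against 1.78 to 2.71 TPM). None of the 3 Schwann cell, 2 adipocyte and 7 muscle fibre markers tested passed without the block, and their summed levels overlapped between the groups. With the block *Myh1* was called lower and *Myh4* higher (limma, adjusted p = 0.0150 and 0.0203), both myosin heavy chains of fast fibres. With the block and median-of-ratios scaling *Myh1* was at -0.0069 (limma, adjusted p = 0.968). In that setting *Myh4* and *Ckm* were called higher (limma, adjusted p = 0.0184 and 0.0308), as were 1561 of the 11611 genes tested. No marker listed was at 0 in all 6 libraries. What part of the collagen change goes with fewer cells of these types was not tested.

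**Figure D5:**
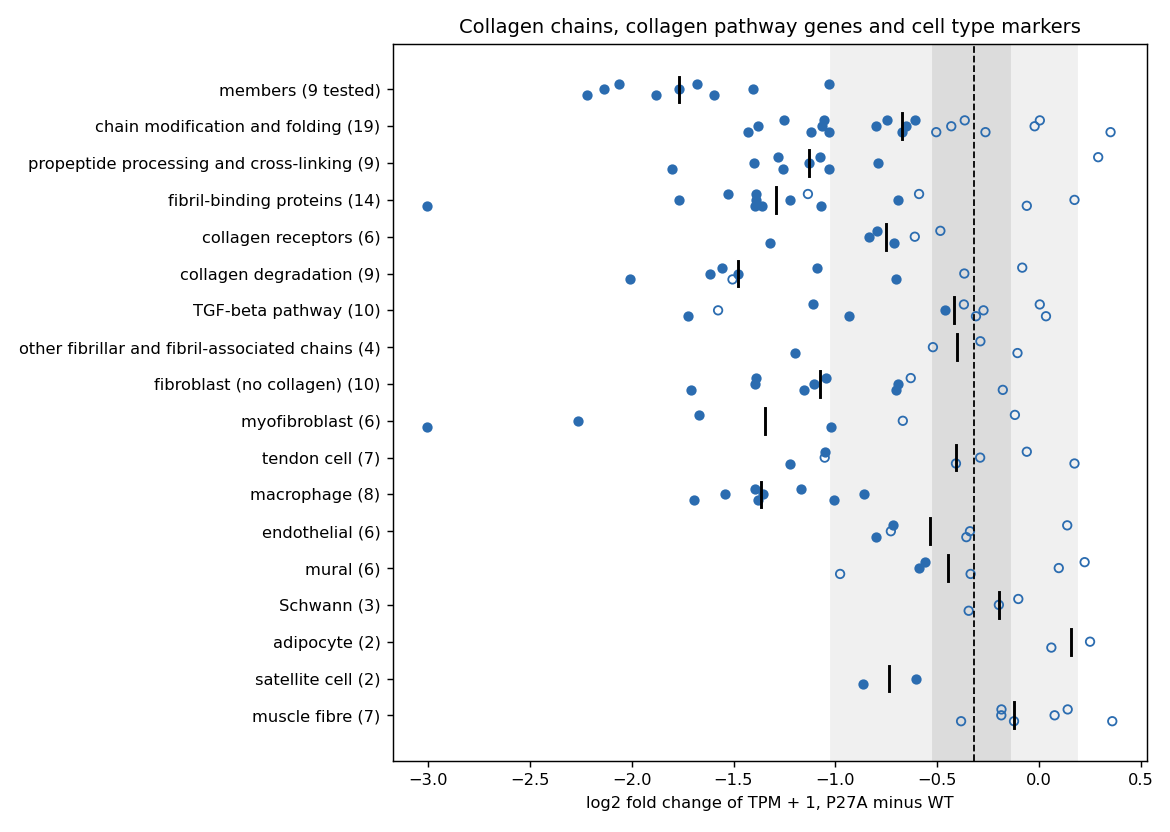
log2 fold change (LrpprcP27A minus LrpprcWT) of each tested gene by list, with the number tested in brackets; filled points had an adjusted p under 0.05 from limma and black bars are list medians. Grey bands hold the central 50 and 90 percent of all tested genes (-0.52 to -0.14, and -1.02 to 0.19) around the median (dashed). Values are as deposited, and all 9 collagen chains lie below the wider band, *Col5a3* (-1.03) only just.

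Because the members moved together, the 250 bases before the start of each canonical transcript (GENCODE, GRCm39) were searched on both strands for 4 short motifs. CCAAT was found in 4 of the 10 (36.5% of 21770 promoters hold it), GGGCGG in 7 (36.3%), CAGAC in 5 (41.3%) and TATAAA in 2 (11.9%). The promoters of the chain with the largest and the chain with the smallest fall of log2(TPM + 1) are given with every motif match in capitals, on the coding strand. *Col1a1* holds 2 matches of CCAAT on the opposite strand, at 99 to 95 and 73 to 69 bases before the start, and GGGCGG at 178 to 173. *Col5a3* holds CCAAT on the coding strand at 67 to 63 and GGGCGG on the opposite strand at 8 to 3. A match describes the letters only. The start used for *Col1a2* lies inside the annotated span of the gene, and windows before other starts were not searched.

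Col1a1 (chr11:94826800-94827049, plus strand): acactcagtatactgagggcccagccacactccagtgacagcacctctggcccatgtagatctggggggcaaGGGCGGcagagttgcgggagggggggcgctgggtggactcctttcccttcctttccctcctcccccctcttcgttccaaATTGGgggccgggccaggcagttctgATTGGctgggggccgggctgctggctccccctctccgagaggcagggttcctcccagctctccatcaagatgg
Col5a3 (chr9:20726419-20726668, minus strand): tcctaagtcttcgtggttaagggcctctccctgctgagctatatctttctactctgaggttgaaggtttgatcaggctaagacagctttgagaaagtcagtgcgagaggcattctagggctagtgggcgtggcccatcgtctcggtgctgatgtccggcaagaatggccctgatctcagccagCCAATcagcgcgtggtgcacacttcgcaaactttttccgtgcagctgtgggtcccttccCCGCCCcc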

How the data were processed

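Paired reads of 100 bp were trimmed by the authors (quality of at least 20, length of at least 50 bp) and mapped with CLC Genomics Workbench to the mouse assembly GRCm39. The deposited values are TPM per gene, which sum to 1000000 in each library. The annotation release is not given in the sources used here. log2(TPM + 1) of the 11611 genes averaging 1 TPM or more was compared between the groups with limma (version 3.58.1, R version 4.3.3, trended prior variance). p-values were adjusted by the Benjamini-Hochberg method over these genes. The fit was tested on simulated data. The Kruskal-Wallis test of the study is among the alternatives.

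After subtracting each group's mean, libraries of equal replicate number correlated over genes at 0.36, 0.53 and 0.36. Since the muscles are contralateral, the replicate number was also used as a block (called paired). With so few pairs, that fit draws much of a gene's variance from other genes. Its standard errors were 0.127 to 0.156 for the tested chains, although their pairs differed more in some chains than in others. A small paired p-value therefore does not show that the pairs of a gene agree. Other alternatives changed the pseudocount, filter, scaling or test, or left out a library.

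Named were the 10 members, *Lrpprc*, from each list up to 3 genes with the lowest and 1 with the highest log2 fold change, and the 5 closest profiles, except 1 gene that is not reported here. *P4ha1*, *P4ha2*, *P4ha3*, *P4hb* and the *Col5a3*/*Col1a1* ratio were named after their values were seen. The members and the lists were chosen with earlier results of these data known. Gene models and sequences come from GENCODE vM39 and GRCm39, matched by symbol.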

Additional observations from a re-analysis of the deposited data

How the results depend on the processing

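With the replicate block, 9 chains were called lower, as without it, and the block changed no call of a member on the deposited scale. The count fell to 0 with no filter, with a linear model without moderation and with the Kruskal-Wallis test. These settings called 42 of 21450, 1 of 11611 and 0 of 11611 genes lower in all, so their count of 0 says nothing particular to the chains. At an unadjusted p under 0.05 they gave 9, 8 and 9 chains, where 6671, 3839 and 5530 of these genes were lower. In the Kruskal-Wallis test only groups without overlap reach that threshold, so its 9 chains repeat the count of chains without overlap. With no filter and the block, chosen after seeing the data, 9 chains were called, where 3210 of 21450 genes were called lower. Leaving out libraries one by one, the count ran from 0 (without LrpprcWT replicate 3) to 9. The number of all 11611 genes called lower ran from 15 to 6913 in these fits, so each count is read beside it. It was 6 chains and 291 genes without LrpprcWT replicate 1, and 9 and 6913 without LrpprcWT replicate 2. Without LrpprcP27A replicates 1, 2 and 3 it was 9, 7 and 7 chains and 1688, 504 and 440 genes. The median log2 fold change of the chains ran from -2.07 to -1.53. That median was -1.42 with median-of-ratios scaling, with or without the block, and -1.45 with quantile normalization. In all 171 alternative fits of single members the direction was kept, and 48 lost a call at the adjusted threshold. Fits that changed only the filter, test or block left the log2 fold change itself as it was. Leaving out a library or changing the pseudocount cannot turn the direction of groups that do not overlap. Only the fits with another scaling could therefore have changed the direction. The difference of the *Col1a1*/*Col3a1* log2 ratio between the groups changed sign with a library left out (-0.09 with all, -0.17 to 0.00091 without one). The *Col12a1*/*Col1a1* difference of -0.02 became 0.82 with TPM + 1 and ran from -0.38 to 0.39 with a library left out (0.10 without LrpprcP27A replicate 2), and that of *Col14a1*/*Col1a1* (-0.16) became 0.16 and ran from -0.40 to 0.0095. Their cause was not tested. TPM gives no depth, so counting error limits the lowest chains, *Col11a1* and *Col12a1*, by an unknown amount.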
